A study of Homo sapiens with 8 samples.

Results

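The replicative helicase of human cells is assembled from an inactive ring of MCM2 to MCM7 that is loaded on DNA before S phase. At the start of S phase CDC45 and the GINS complex join the ring to form the active CMG helicase. The 10 genes described here encode the parts and helpers of this step: *CDC45*; *GINS1*, *GINS2*, *GINS3* and *GINS4*, the subunits of GINS; *MCM10*, which is needed for the assembled helicase to start unwinding; and *TICRR*, *MTBP*, *TOPBP1* and *RECQL4*, which act in bringing CDC45 and GINS to the ring. *DONSON*, the target of the siRNAs in this series, is known as a partner of these firing factors at the same step. The 10 genes were chosen by name and not by a cut on their values, but with earlier results of these data known. They are 10 of the 22439 genes that the probes of the array could be assigned to. All 10 were measured on all 8 arrays.

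Every array compared treated RNA, labeled with Cy5 (red), with control RNA of the same lung cancer cell line, labeled with Cy3 (green), on 1 slide with no dye swap. EBC-1 and SK-MES-1, both lung squamous cell carcinoma (LUSQ) lines, were transfected with *miR-150-3p*, 1 array each. SBC-3, a small cell lung cancer line, received siDONSON-1, siDONSON-2 or siDONSON-3, 1 array for each siRNA. A549, a lung adenocarcinoma line, carried *LOXL2* genome editing by CRISPR/Cas9, on 3 arrays (A549-GE1, A549-GE2 and A549-GE3). The labels describe the controls of the transfections both as mock and as having no transfection, and those of A549 as having no genome editing. They do not say whether the edited arrays are separate clones or whether arrays of a line share a control RNA. The p-values over them therefore rest on the spread between arrays, which may not be that between separate cultures. Unless stated otherwise, this spread was estimated from the arrays of all groups together. Where EBC-1 and SK-MES-1 share a common mean, the gap between these lines is part of the estimate. A log2 ratio is red over green and is negative where the treated cells had less RNA of a gene. Levels are of RNA from all cells of a culture, and fewer cells in S phase and less RNA per cell cannot be told apart.

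The targeted genes followed the labels. *DONSON* was at a log2 ratio of -2.15, -1.79 and -2.11 with siDONSON-1, siDONSON-2 and siDONSON-3. *LOXL2* was at -2.49, -2.67 and -2.59 in the edited A549 arrays. Of 8 squamous markers, the control RNA was well above background for 2 in EBC-1 (*SOX2* and *SERPINB5*) and for 4 in SK-MES-1 (these and *TP63* and *KRT14*), while *KRT5*, *KRT6A*, *DSG3* and *DSC3* were not in either line. Among small cell markers, *NEUROD1*, *CHGA* and *SYP* were well above background in SBC-3, and *INSM1*, *POU2F3*, *NCAM1* and *SCG2* were not. Of 8 markers of adenocarcinoma and A549, 6 were well above background in A549 (*NAPSA*, *KRT7*, *KRT18*, *AKR1B10*, *ALDH1A1* and *GCLM*), and *NKX2-1* and *SFTPB* were not. Between 14759 and 16176 genes were measured per array.

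Promoters of 4 genes whose response to *miR-150-3p* differed between the squamous lines by the test given further on are shown first, with that of *TOPBP1*, which had the log2 ratio nearest to 0 of the 10 genes in EBC-1 by the software's processed signals. They were taken from RefSeq (GRCh38.p14), as the 250 bases before and the 50 bases after the annotated start, on the strand of the gene. The table listed 7 of the 10 genes and not *GINS4*, *MTBP* and *RECQL4*. Capitals mark matches on either strand to the E2F-type letters TTTNNCGC and to CCAAT, the letters bound by NF-Y. The *MCM10* promoter lies at chr10:13161308-13161607 (+), that of *GINS1* at chr20:25407423-25407722 (+), that of *GINS2* at chr16:85688905-85689204 (-), the first of 2 for *TICRR* at chr15:89575219-89575518 (+) and that of *TOPBP1* at chr3:133661892-133662191 (-).
MCM10: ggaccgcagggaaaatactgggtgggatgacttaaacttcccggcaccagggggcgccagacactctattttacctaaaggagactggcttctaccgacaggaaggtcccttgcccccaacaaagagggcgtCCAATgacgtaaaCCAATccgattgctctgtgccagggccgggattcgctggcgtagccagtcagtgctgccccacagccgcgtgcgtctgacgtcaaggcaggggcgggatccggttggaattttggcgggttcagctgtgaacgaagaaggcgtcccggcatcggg
GINS1: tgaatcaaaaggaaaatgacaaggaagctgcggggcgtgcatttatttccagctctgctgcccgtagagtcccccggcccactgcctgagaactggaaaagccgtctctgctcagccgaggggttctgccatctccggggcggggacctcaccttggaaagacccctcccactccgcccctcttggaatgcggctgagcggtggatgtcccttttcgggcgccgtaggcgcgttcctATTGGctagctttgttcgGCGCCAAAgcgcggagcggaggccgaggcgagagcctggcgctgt
GINS2: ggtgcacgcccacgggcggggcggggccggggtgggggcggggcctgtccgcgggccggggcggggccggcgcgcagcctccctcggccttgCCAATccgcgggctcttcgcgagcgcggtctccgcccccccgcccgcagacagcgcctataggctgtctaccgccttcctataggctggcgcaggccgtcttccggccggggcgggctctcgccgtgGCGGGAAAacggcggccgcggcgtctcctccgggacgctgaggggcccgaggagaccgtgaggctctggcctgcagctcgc
TICRR: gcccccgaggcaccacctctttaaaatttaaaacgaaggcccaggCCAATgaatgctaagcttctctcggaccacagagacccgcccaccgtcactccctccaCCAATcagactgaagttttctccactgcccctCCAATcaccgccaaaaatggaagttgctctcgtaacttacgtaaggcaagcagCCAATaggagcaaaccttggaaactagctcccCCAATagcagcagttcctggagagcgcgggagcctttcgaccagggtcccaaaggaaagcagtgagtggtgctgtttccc
TOPBP1: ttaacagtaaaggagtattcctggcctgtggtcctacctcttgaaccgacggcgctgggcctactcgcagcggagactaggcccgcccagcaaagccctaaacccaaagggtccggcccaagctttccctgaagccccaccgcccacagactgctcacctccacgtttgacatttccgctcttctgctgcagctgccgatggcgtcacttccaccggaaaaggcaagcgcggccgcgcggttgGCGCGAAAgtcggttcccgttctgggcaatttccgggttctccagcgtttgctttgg
The E2F-type letters were present once in *GINS1*, *GINS2*, *GINS3* and *TOPBP1*, that is in 4 of the 7 genes, and in 6.9% of all 35116 listed promoters of this length. CCAAT was present in *CDC45*, *GINS1*, *GINS2*, *MCM10* and *TICRR*, 5 of the 7 genes, and in 34.6% of all promoters. A gene with several listed starts, as *CDC45* with 3, has more windows to hold a match. The first *TICRR* window held 5 copies of CCAAT, the most among these windows. The letters TTTGAA, of the CHR element of cell cycle genes, were in 0 of the 7 genes and in 15.2% of all promoters. Only exact matches were counted. The E2F-type letters with another last base, as in *MCM10* and the third *CDC45* window, were not. The matches describe these windows only.

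After transfection of *miR-150-3p*, all 10 genes had less RNA than the control in both squamous lines, with values farther from 0 in EBC-1. In EBC-1, 9 of the 10 genes were below a log2 ratio of -1, where 6.04% of the 14759 genes measured were. In SK-MES-1 none of the 10 (0) was below -1, where 1.27% of 16176 genes were. All 10 were below 0 in both lines, against 45.9% (EBC-1) and 47.5% (SK-MES-1) of all genes. The median of the 10 genes was -1.86 (EBC-1) and -0.30 (SK-MES-1), while that of all genes was 0.05 and 0.02. Each line has 1 array and so no spread of its own, and the error given here is that of the scanner software, which covers the noise within an array only. All 10 genes in EBC-1 and 4 of the 10 on the SK-MES-1 array (*CDC45*, *GINS2*, *GINS4* and *MCM10*) lay below the 95% limits of this error around 0, as did 17.9% (EBC-1) and 7.47% (SK-MES-1) of all genes measured.

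*CDC45*, the part of the helicase that holds the ring and GINS together, was at -2.51 in EBC-1 (software error 0.31), which is 5.68-fold lower than the control. In SK-MES-1 it was at -0.42 (0.21), or 74.7% of the control level.

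The subunits of GINS were not equally low. *GINS2* had the lowest value of the 4 in EBC-1, -2.79, and also on the SK-MES-1 array, -0.50. Its probe is printed 10 times on the array, and the SD over the 10 spots was 0.04 and 0.03 on these arrays (noise within an array, not between cultures). *GINS1* was at -2.29 (EBC-1) and -0.31 (SK-MES-1). *GINS4* was at -1.97 and -0.41. *GINS3* was the subunit nearest to 0, at -1.62 and -0.29, although in SK-MES-1 under normexp and loess, an alternative described further on, *GINS1* was (-0.25 against -0.28). The order of the 4 subunits was the same in both lines except that *GINS1* and *GINS4* changed places, and in SK-MES-1 neighbouring values in this order differed by less than the software's error of 0.21.

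*MCM10* was at -2.97 on the EBC-1 array (software error 0.38), 7.84-fold lower than the control, and at -0.53 (0.21) on the SK-MES-1 array. These were the lowest measured values of the 10 genes by the software's processed signals, but *GINS2* was within the software's error of them in both lines (-2.79 and -0.50). Under normexp and loess *MCM10* was at -0.62 and -0.26, and *GINS2* (-2.45) was lowest in EBC-1 and *CDC45* (-0.45) in SK-MES-1. Its red intensity in EBC-1 was 38 against a green intensity of 298, so the value rests on a dim spot, although both channels were well above background.

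The factors that bring CDC45 and GINS to the ring were below 0 in both lines as well. *TICRR* (treslin), which carries CDC45 to the ring once it has been phosphorylated by cyclin-dependent kinase, was at -1.75 (EBC-1) and at -0.15 (SK-MES-1). *MTBP*, the partner of treslin, was at -1.63 (EBC-1) and -0.30 (SK-MES-1). Its green intensity was 92.4 and its red intensity 29.9 in EBC-1, where red was not well above background. The size of the ratio there is uncertain (software error 0.42, and -0.18 under normexp and loess). *MTBP* thus has no place in an order of the values. *TOPBP1*, a scaffold that binds phosphorylated treslin and also activates the checkpoint kinase ATR, was at -0.99 and -0.21, the former just short of -1. *RECQL4*, a helicase of the RecQ family whose N-terminus takes part in replication start, was at -1.22 and -0.24 as a mean of 4 probes that disagreed in EBC-1 (its brighter 2 were at -1.95 and -2.04, as given further on). *DONSON* itself was at -1.02 and -0.22, within the range of the 10 genes in both lines.

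**Figure D1:**
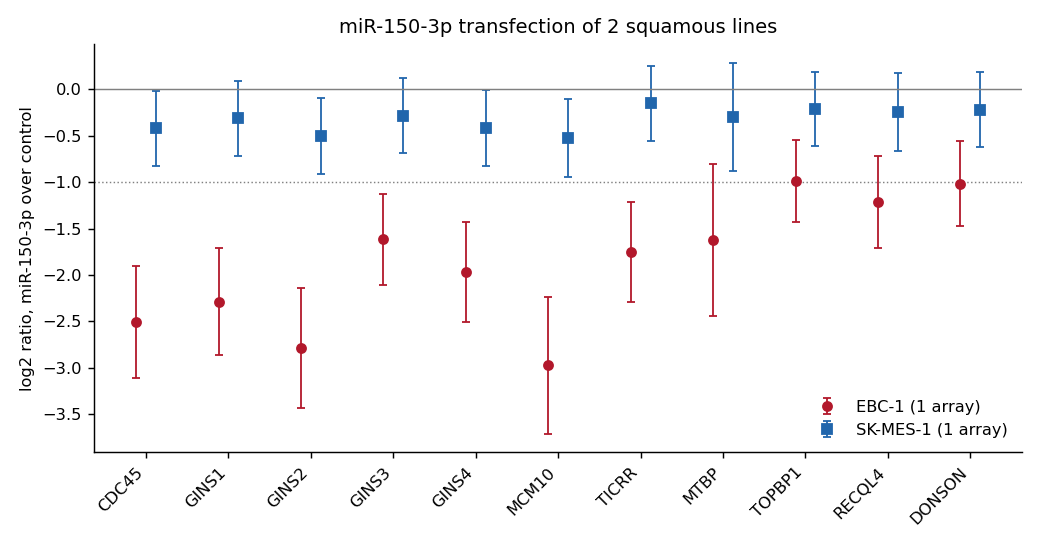
Log2 ratio of *miR-150-3p* over control (y axis) for the 10 genes and *DONSON* on the EBC-1 array (circles) and the SK-MES-1 array (squares), with bars for the 95% limits of the software's error within the array. The dotted line is at -1, and the 10 genes lie between -2.97 and -0.99 (EBC-1) and between -0.53 and -0.15 (SK-MES-1).

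The size of these values depended on the background correction. With normexp (offset 50) and loess in place of the software's own steps, 5 of the 10 genes were below -1 in EBC-1 (*CDC45*, *GINS1*, *GINS2*, *GINS3* and *GINS4*), all 10 still below 0. The share of all genes below -1 in this setting is not given here. The offset shrinks ratios of dim spots by construction, and the dim genes moved most, *MCM10* from -2.97 to -0.62, *TICRR* from -1.75 to -0.50 and *MTBP* from -1.63 to -0.18.

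In a fit that treats both lines as samples of the same transfection (n = 2), limma called 0 of the 10 genes at an adjusted p of 0.05, where 2.9% of 14229 genes were called lower. The mean log2 ratios were between -1.75 (*MCM10*) and -0.60 (*TOPBP1*), with SEs of 0.18 to 0.45, and the adjusted p-values by limma lay between 0.0597 and 0.0923. At an unadjusted p of 0.05 all 10 genes passed, as did 30.0% of all genes tested. Without the SK-MES-1 array, and under the assumption that the lone EBC-1 array varies like the arrays of the other groups, limma called all 10 genes lower, where 10.8% of 14366 genes were called lower.

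The difference between the lines was tested with limma in a model with a mean for each line. The estimate for EBC-1 minus SK-MES-1 was below 0 for all 10 genes, and 5 of the 10 were called, where 1.58% of 14029 genes were called lower. *MCM10* differed by -2.44 (SE 0.22, limma adjusted p = 0.0135) and *GINS1* by -1.98 (SE 0.20, limma adjusted p = 0.0175). *TICRR* differed by -1.60 (limma adjusted p = 0.0272), *GINS4* by -1.55 (0.0317) and *GINS2* by -2.28 (0.0353). The other 5 genes did not pass. *CDC45* differed by -2.09 but had the largest SE of the 10, 0.43. Its SD was 0.51 over the SBC-3 arrays, which together with the A549 arrays gave the estimate of the spread, and its adjusted p by limma was 0.0716. *GINS3* was at -1.33 (limma adjusted p = 0.0644), *RECQL4* at -0.97 (0.0654) and *TOPBP1* at -0.77 (0.169). *MTBP* was at -1.33 with its red signal in EBC-1 as measured. As that signal was not well above background, the size of this difference is uncertain, and under normexp and loess it was -0.14. Under normexp and loess *MCM10* and *TICRR* no longer passed (-0.36 and -0.45, limma adjusted p = 0.118 and 0.0837), while *CDC45*, *GINS3* and *RECQL4* did. Over all genes, 323 were called lower in that setting in place of 221. The test assumes that a lone array of a line varies like the arrays of the other groups.

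*RECQL4* was the only one of the 10 genes with several probes, and its 4 probes disagreed in EBC-1. The brightest 2 probes, with a median green intensity of 11815 and 2585, were at -1.95 and -2.04 in EBC-1. The other two, with a median green intensity of 142 and 125, were at 0.06 and -0.94. In SK-MES-1 the values in the same order were -0.28, -0.38, -0.02 and -0.30. The difference between the highest and the lowest probe was 2.09 in EBC-1 and at most 0.49 on each of the other 7 arrays. The value of -1.22 is the mean of the 4. With the brightest probe in its place, *RECQL4* was at -1.95 in EBC-1, and its difference between the lines became -1.67 (limma adjusted p = 0.0226).

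**Figure D2:**
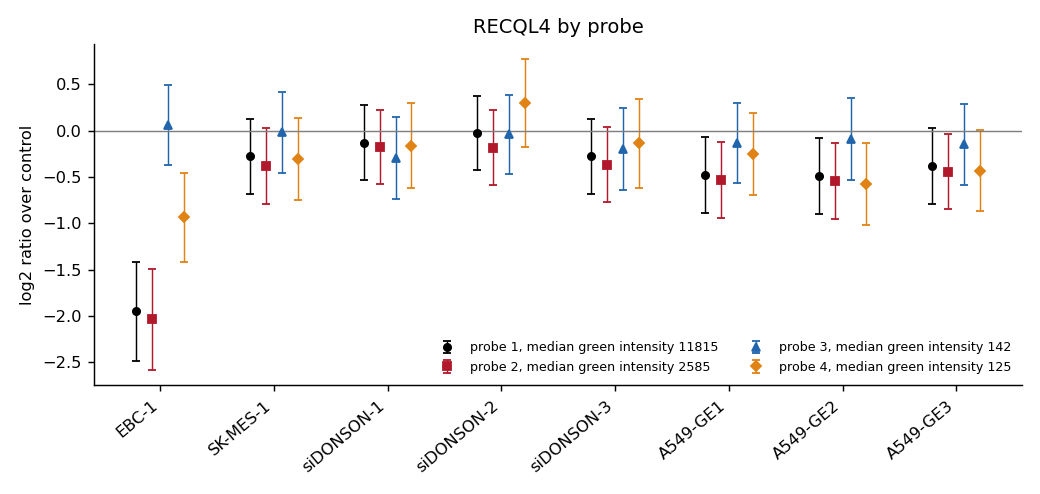
Log2 ratio over control (y axis) of the 4 probes of *RECQL4* on each of the 8 arrays, with bars for the 95% limits of the software's error. In EBC-1 the 2 brighter probes are near -2 and a dim probe is near 0 (0.06), while on the other arrays the probes lie close together.

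Genes that act around this step were compared through lists chosen by function. The *MCM2* to *MCM7* genes, the ring itself, were all below -1 in EBC-1 (6 of 6, from -2.09 for *MCM6* to -1.47 for *MCM5*), with a median of -1.64. In SK-MES-1 they had a median of -0.07, from -0.16 for *MCM4* to 0.17 for *MCM5*, and 5 of 6 were below 0. All 6 passed limma's test of the difference between the lines, with lower values in EBC-1. Of 15 measured genes (of 16) of polymerase epsilon and its replisome partners, 11 were below -1 in EBC-1, and *CLSPN*, the checkpoint mediator claspin, had the lowest value in both lines (-2.70 and -0.59), while *POLE4* was at 0.16 in EBC-1. Of these 15 genes, 8 passed that test with lower values in EBC-1, the lowest difference being that of *PRIM1*, a primase subunit (-2.13). With both lines in a common mean, limma called *CCNE1* (-1.35), *CDK2* (-0.92), *CHEK1* (-0.94), *RHNO1* (-0.74) and *FAF1* (-0.80) lower and *CDKN1B* (0.66) higher among the lists. *CDK2*, *RHNO1* and *FAF1* were named after their values were seen.

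The kinases and phosphatases of origin firing had a median of -1.51 in EBC-1, where 9 of 11 were below -1, from *CDK1* at -2.82 to *DBF4B* at -0.03. In SK-MES-1 1 of these 11 genes was below -1, *CCNE1* (cyclin E1), at -1.18. The genes of origin licensing, which load the ring in G1, had a median of -1.07 in EBC-1, with 6 of 10 below -1, from *ORC6* at -2.20 to *ORC4* at 0.16. The partners of *TOPBP1* in the checkpoint were less low, with a median of -0.29 and 3 of 9 below -1, the lowest being *CHEK1* at -1.35 and the highest *ETAA1* at 0.55. Of 9 genes that take the helicase off DNA at the end of replication, 2 were below -1 in EBC-1, and *TRAIP*, a ubiquitin ligase, was the lowest at -2.23. Among the RecQ helicases other than *RECQL4*, *BLM* was at -2.57 (EBC-1) and -0.21 (SK-MES-1), and the other 3 lay between -0.73 and 0.30 in EBC-1. In the list of E2F and G1 control genes, 6 of 15 were below -1 in EBC-1, from *E2F2* at -2.87 to *CDKN1B*, which encodes the inhibitor p27, at 0.71. In SK-MES-1 *E2F2* was also the lowest, at -0.80, and *CDKN1B* the highest, at 0.61.

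**Figure D3:**
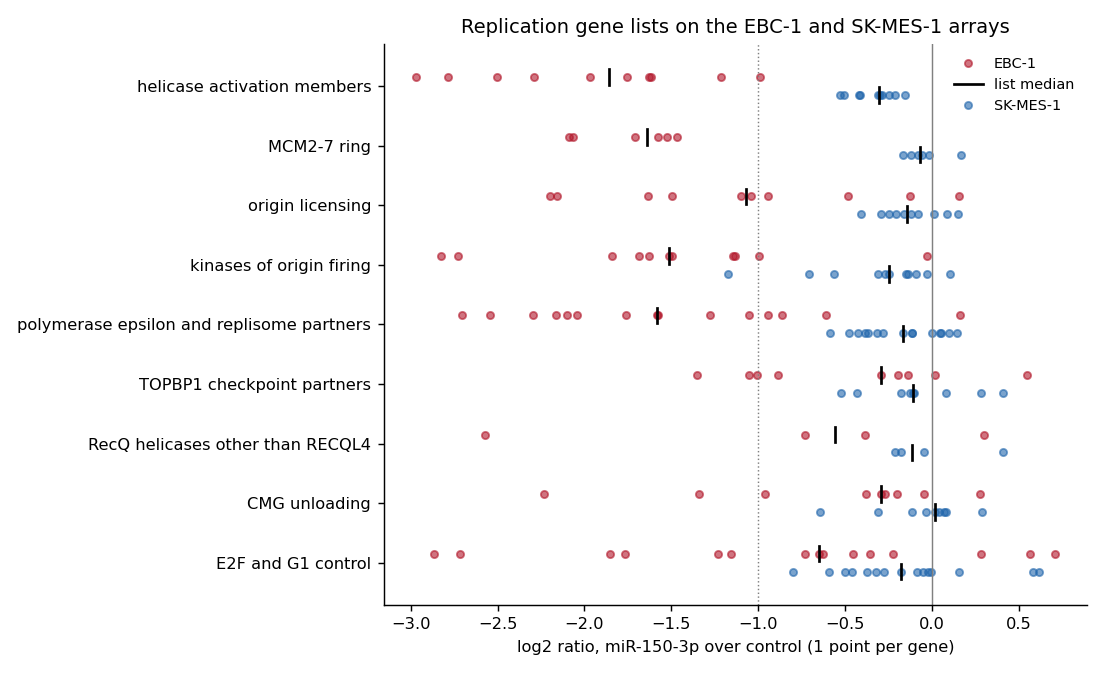
Log2 ratio of *miR-150-3p* over control (x axis) for each gene of 9 lists, on the EBC-1 array (upper row of a list) and the SK-MES-1 array (lower row), with the list's median as a black bar. The 10 helicase activation genes and the 6 ring genes form the lists with the lowest medians in EBC-1, -1.86 and -1.64.

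After siDONSON in SBC-3, limma called 0 of the 10 genes, where 3.21% of 14453 genes were called lower and 4.01% higher. At an unadjusted p of 0.05 the number was also 0. *DONSON* was at -2.02 ± 0.20 (SD, n = 3) in the same arrays. The means of the 10 genes lay between -0.48 (*CDC45*) and 0.05 (*GINS1*), their median was -0.11, and that of all genes was 0.03. The widest of the 95% intervals by limma was that of *MCM10*, from -0.83 to 0.88. This width does not come from the siDONSON arrays, over which *MCM10* had an SD of 0.19 (n = 3), but from the gap between EBC-1 and SK-MES-1 (SD 1.73, n = 2), which a common mean of both lines leaves in the estimate of the spread. With a mean for each squamous line instead, an alternative chosen after seeing the data, the interval of *MCM10* was -0.19 to 0.25. In that fit limma also called 0 of the 10 genes after siDONSON, where 4.45% of 14453 genes were called lower and 5.3% higher. *MTBP* and *CDC45* passed there at an unadjusted p of 0.05 (limma adjusted p = 0.0930 and 0.133), both lower.

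The siRNAs differed from each other for some of the genes. *CDC45* was at -0.87 with siDONSON-1 and -0.67 with siDONSON-3 but at 0.10 with siDONSON-2. Its mean was -0.48 (SE 0.35, limma adjusted p = 0.420), and without siDONSON-2 it was -0.77 (limma adjusted p = 0.289). *GINS2* was highest with siDONSON-2 as well, at 0.45, against -0.07 and -0.27 with siDONSON-1 and siDONSON-3. The SD over its 10 spots was at most 0.07 on these arrays. The control (green) levels of *CDC45* and *GINS2* had an SD of 0.03 and 0.06 over the 3 arrays and the treated (red) levels an SD of 0.49 and 0.39, so most of the spread lay in the red channel. Over the 10 genes the median was -0.14 with siDONSON-1, 0.05 with siDONSON-2 and -0.26 with siDONSON-3, and 8, 3 and 8 genes were below 0.

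The other members were at values between -0.44 and 0.22. *GINS1* was at 0.19, 0.01 and -0.03 with siDONSON-1, siDONSON-2 and siDONSON-3, *GINS3* at -0.08, 0.09 and -0.42, and *GINS4* at -0.37, -0.06 and -0.03. The value of *GINS3* with siDONSON-3 was beyond its 95% limits by the software. *MCM10* was at -0.15, 0.22 and 0.01. These 4 genes had values on both sides of 0 except *GINS4*, which was below 0 on each array. *TICRR* was at 0.02, -0.11 and 0.06, *TOPBP1* at -0.13, 0.17 and -0.27, and *RECQL4* at -0.19, 0.01 and -0.24. *MTBP* was the most alike over the siRNAs, at -0.30, -0.44 and -0.43, with a mean of -0.39 (SE 0.23, limma adjusted p = 0.319). Under normexp and loess the mean of *MTBP* was -0.08. In the lists around this step, 0 of 6 ring genes, 0 of 10 licensing genes and 0 of 11 kinase genes were called. Among 8 measured partners of *TOPBP1* in the checkpoint, *RAD17* (-0.50), which loads the 9-1-1 clamp, and *RAD9A* (-0.44), a part of that clamp, were called lower. *CDKN1A*, which encodes the inhibitor p21, was called higher (0.85, limma adjusted p = 0.0305). In *LOXL2*-edited A549, *RAD17* (-0.42) and *CDKN1A* (0.94) were called in the same directions. SiDONSON minus *LOXL2* editing was -0.08 and -0.09 for these genes (limma adjusted p = 0.759 and 0.856). For *RAD9A* it was -0.69 (limma adjusted p = 0.0200). *RAD9A* was named after its value was seen.

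In *LOXL2*-edited A549 cells, limma also called 0 of the 10 genes, where 6.77% of 15531 genes were called lower and 7.58% higher, and 1 of the 10, *MTBP*, passed at an unadjusted p of 0.05. The 10 genes had a median of -0.20, while all genes had 0.02. *MTBP* was at -0.44, -1.03 and -0.58 in A549-GE1, A549-GE2 and A549-GE3, with a mean of -0.68 ± 0.31 (SD, n = 3, limma adjusted p = 0.0860). Its green intensity there was 77.4 to 108, and A549-GE2 had both the highest green intensity and the lowest ratio. The SD of its level over these arrays was 0.24 in the control (green) channel and 0.08 in the red channel. With probes counted only when both channels were well above background, *MTBP* passed (limma adjusted p = 0.0112), and without A549-GE2 its mean was -0.51. Under normexp and loess, which shrinks ratios of dim spots, its mean was -0.13 and it did not pass (limma adjusted p = 0.0864). *MTBP* and *GINS4* were the 2 of the 10 genes below 0 on all 8 arrays. Since treated RNA was always in Cy5, a dye effect of a probe and a lower level cannot be told apart in a mean over arrays, whereas such an effect cancels in differences between groups.

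*GINS1* was the only one of the 10 genes above 0.15 in the edited cells. It was at 0.31, 0.48 and 0.46, with a mean of 0.42 ± 0.09 (SD, n = 3, limma adjusted p = 0.397). The other subunits of GINS were below 0 on each of these arrays, *GINS2* at -0.25, -0.17 and -0.09, *GINS3* at -0.31, -0.16 and -0.20, and *GINS4* at -0.20, -0.21 and -0.15. *GINS1* thus did not overlap with the other subunits in these arrays. *RECQL4* was at -0.35, -0.42 and -0.35, *TOPBP1* at -0.26, -0.27 and -0.22, and *CDC45* at -0.26, -0.20 and -0.17, all below 0. *MCM10* was at -0.03, 0.09 and -0.03 and *TICRR* at -0.04, 0.14 and 0.12, on both sides of 0.

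The edited arrays varied little, and the call depended on where the spread was taken from. When it was estimated from the 3 edited arrays alone, limma called 7 of the 10 genes: *GINS1* higher and *CDC45*, *GINS3*, *GINS4*, *MTBP*, *TOPBP1* and *RECQL4* lower. In that fit 18.4% of all 15531 genes were called lower and 19.5% higher. With all arrays and a mean for each squamous line, limma called 3 of the 10 genes, *GINS1* higher (adjusted p = 0.0204) and *MTBP* (0.0161) and *RECQL4* (0.0262) lower, where 8.95% of all genes were called lower and 9.65% higher. In the lists around this step the shared fit called *CDK2* (-0.94) and *PPP1CC* (-0.52) lower among 11 kinase and phosphatase genes, and 0 of 6 ring genes. *CDKN1A* was higher (0.94, limma adjusted p = 0.0135), as were *CDKN1B* (0.53) and *ELOC* (0.53), while *CDK4* (-0.41) and *RAD17* (-0.42) were lower. All of these but *CDK2*, *CDKN1A* and *ELOC* were named after their values were seen.

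**Figure D4:**
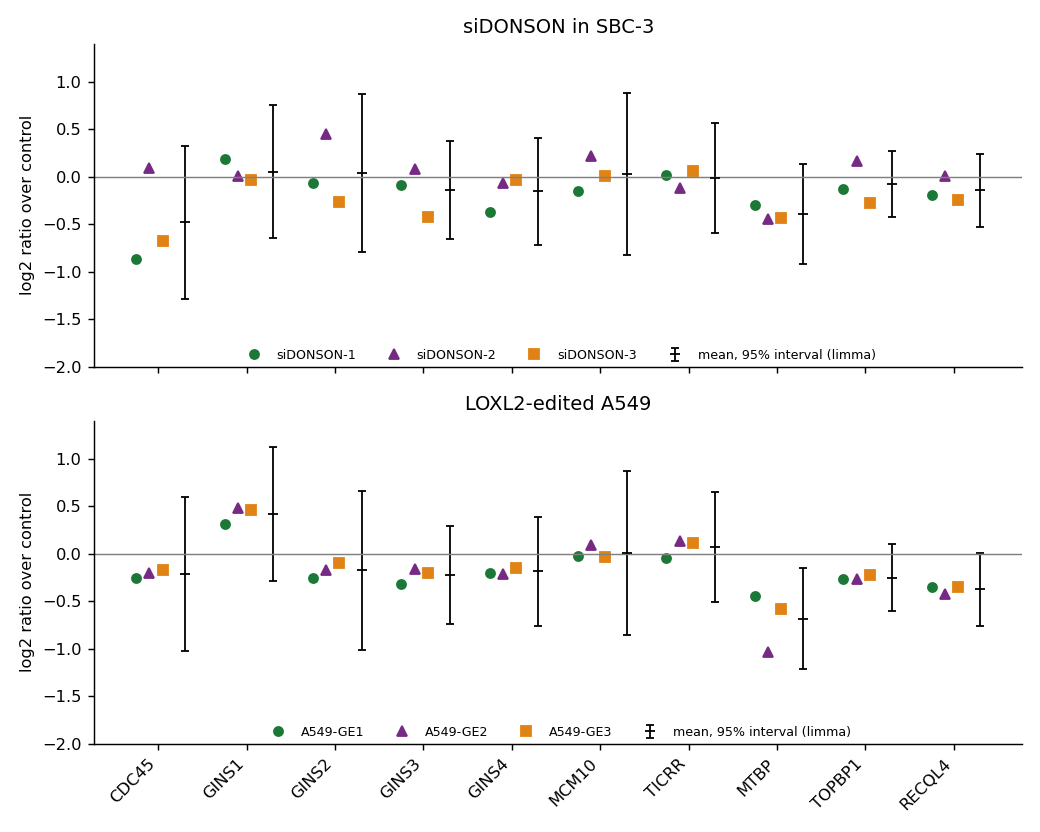
Log2 ratio over control (y axis) of the 10 genes in SBC-3 with 3 siRNAs against *DONSON* (upper panel) and in 3 *LOXL2*-edited A549 arrays (lower panel), with the mean and its 95% interval by limma (both squamous lines in a common mean) in black. All the intervals but that of *MTBP* in A549 include 0, and *CDC45* with siDONSON-2 (0.10) lies apart from the other two siRNAs.

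For siDONSON minus *LOXL2* editing limma called 0 of the 10 genes, where 3.51% of 13655 genes were called lower and 3.78% higher, and at an unadjusted p of 0.05 it was 0 as well. The largest difference was that of *GINS1*, -0.36 (95% interval -1.34 to 0.61), followed by *MTBP*, 0.29 (-0.44 to 1.03). *CDC45* differed by -0.27 (-1.39 to 0.85). The width of these intervals also holds the gap between the squamous lines: *GINS1* was at -2.29 and -0.31 after *miR-150-3p*, while its SDs in the groups compared were 0.12 and 0.09 (n = 3 each). Its values were -0.03 to 0.19 with siDONSON and 0.31 to 0.48 in edited A549. With a mean for each squamous line the interval of *GINS1* was -0.64 to -0.09, and it passed at an unadjusted p of 0.05 but not after adjustment (limma adjusted p = 0.0917). In that fit limma again called 0 of the 10 genes, where 4.64% of 13655 genes were called lower and 5.23% higher.

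The control RNA shows the level of each gene in the 4 lines before treatment. These log2 levels are of the green channel after A-quantile scaling, and each gene was compared only with itself, without a test, since arrays of a line may share a control RNA. *GINS4* was highest in SBC-3, at 13.79 ± 0.06 (SD, n = 3), followed by A549 with 12.51 ± 0.00262 (SD, n = 3), and the squamous lines had 11.60 (EBC-1) and 11.58 (SK-MES-1), which did not differ beyond the spread seen in SBC-3. It had the widest range of the 10 genes, 4.65-fold. *GINS2* went the other way, with the lowest level in SBC-3 (11.00 ± 0.06) and the highest in EBC-1 (12.96), and with 12.41 in A549 and 11.99 in SK-MES-1. The subunits of this complex thus differed in opposite directions between SBC-3 and A549, where *GINS1* (11.55 and 12.72) and *GINS3* (11.35 and 12.17) were also lower in SBC-3.

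Of the 10 genes, 7 had a lower level in SBC-3 than in A549, and *GINS4*, *MTBP* and *RECQL4* a higher one. *CDC45* was the most even, from 12.73 in SBC-3 to 13.15 in EBC-1, a range of 1.34-fold, with A549 (12.78) and SBC-3 apart by 0.05, close to their SDs of 0.03. *MTBP* was highest in SBC-3 (7.57 ± 0.16), with 6.56 ± 0.24 in A549, 6.50 and 5.71 in the squamous lines EBC-1 and SK-MES-1. *MCM10* was highest in A549 (9.22), as was *TICRR* (9.17), and both were lowest in EBC-1 (8.22 and 8.47). *TOPBP1* was highest in SK-MES-1 (10.30) and between 9.54 and 9.76 in the other lines. *RECQL4* was highest in EBC-1 (10.40) and between 9.61 and 9.86 elsewhere. Over 12862 genes the median range among the lines was 1.36 on the log2 scale, and 6 of the 10 genes had a range below it. Among genes whose response differed by the test, the level before transfection, EBC-1 minus SK-MES-1, was -0.18 for *GINS1* and -0.20 for *MCM10*. It was -0.10 for *TICRR*, 0.02 for *GINS4* and 0.97 for *GINS2*. Among the others it was 0.16 for *CDC45*, -0.48 for *GINS3*, -0.76 for *TOPBP1*, 0.79 for *RECQL4* and 0.80 for *MTBP*. Each squamous line has 1 array, and a link between level and response was not tested.

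**Figure D5:**
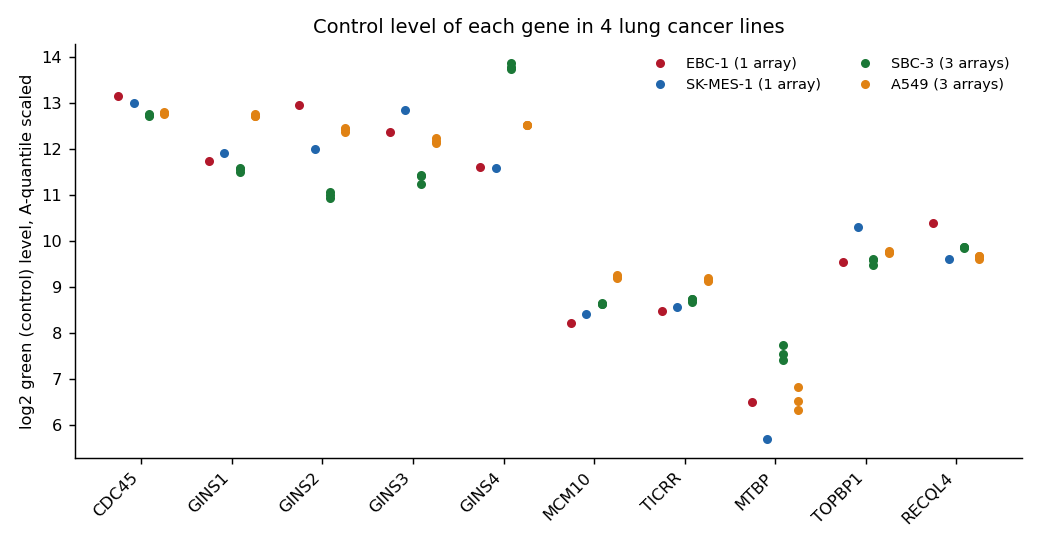
Log2 level of the control (green) channel after A-quantile scaling (y axis) for the 10 genes, with 1 point per array in each of 4 lung cancer lines. *GINS4* is highest and *GINS2* lowest in SBC-3, and heights are to be compared within a gene and not between genes.

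The genes whose log2 ratios followed the mean of the 10 genes most closely were found among 12852 genes with a value on all 8 arrays. They were *BLM*, a RecQ helicase (r = 0.998), *ITGB3BP*, a centromere protein (0.998), *TRIP13*, an ATPase of the spindle checkpoint (0.996), *SRM*, spermidine synthase (0.996), and *PRPS2*, an enzyme of nucleotide synthesis (0.992). The correlation rests on the EBC-1 array, the farthest of the 8 points. Without it r was between 0.656 (*PRPS2*) and 0.935 (*BLM*). *TRIP13* was at -2.08 (EBC-1) and -0.30 (SK-MES-1). The correlations are a description over arrays of different treatments.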

How the data were processed

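The authors deposited Agilent Feature Extraction output (version 12.1.1.1) of 8 two-colour arrays. Per the file headers, the deposited intensities of both channels had been background-subtracted, detrended and dye-normalized by the authors' software. The deposited log10 ratios of red over green were the same in a table of the whole series (largest difference 0). These intensities were turned into log2 ratios. Control spots and 81 to 133 outlier spots per array were left out, of 60901 spots that are not controls, and 0 spots were saturated. Probes were named through RefSeq accessions and counted when well above background in at least 1 channel, at 41.1% to 46.4% of spots in green and 48.5% to 56.2% in red. Probes of a gene were averaged.

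limma (version 3.58.1, R 4.3.3) was fitted to all 8 arrays with Benjamini-Hochberg adjustment over all genes tested at a threshold of 0.05, with 3 group means (5 residual degrees of freedom) or, for EBC-1 minus SK-MES-1, with 4 (4 degrees of freedom). The code was tested on simulated data. All arrays are on 1 slide, so no slide block was fitted. Named genes were the 10 genes, *DONSON* and *LOXL2*, the lowest and highest gene of each list and the 5 genes most like their mean profile. The genes and lists were chosen with earlier results of these data known. The alternatives were other background correction, centring, filters on dim probes, probe choice, the deposited table, another threshold, arrays left out, another estimate of the spread, a replicate block and, chosen after seeing the data, 4 means for the groups other than the squamous lines too.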

Additional observations from a re-analysis of the deposited data

Results flagged for a closer look

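The response to *miR-150-3p* differed between EBC-1 and SK-MES-1, by limma's test of the difference, for 5 of the 10 genes. The differences of the log2 ratios, EBC-1 minus SK-MES-1, were -2.44 for *MCM10*, -2.28 for *GINS2*, -1.98 for *GINS1*, -1.60 for *TICRR* and -1.55 for *GINS4*, and each of these genes was below 0 on both arrays. *GINS1* passed under each of the 7 alternatives run for this difference, and *GINS2*, *GINS4*, *MCM10* and *TICRR* under 6 of 7. Among these alternatives, the deposited table held the same ratios. The 5 genes have 1 probe each, so the choice of probe did not change their ratios either. Passing in these settings was therefore largely fixed in advance. No group of arrays was large enough for a search for single arrays that stand apart.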

How the results depend on the processing

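Of 74 counts of the 10 genes recomputed under the alternatives, 64 stayed within 1.5 times the reported count. On the EBC-1 array, 5 genes were below -1 under normexp and loess in place of 9. On the SK-MES-1 array, 2 genes were below -0.5. The shares of all genes past these limits in these settings are not given here. After *miR-150-3p*, 2 genes were called under normexp and loess (1536 of all genes in place of 765), in place of 0. With both channels well above background 2 were called, and with the same probes on all arrays 1 was. Counts of all genes in these last settings are not given here, so those of the 10 genes cannot be set against a share. With an array left out it was 0 to 10, the latter without SK-MES-1. After *LOXL2* editing, 1 gene was called with both channels well above background, 7 with the spread of the group's own arrays and 3 with a mean for each squamous line (chosen after seeing the data). The share of all genes for the first of these settings is not given here, and those for the others were given above. For EBC-1 minus SK-MES-1, 3 genes were called with no filter on dim probes in place of 5 (125 of all genes in place of 295). An array could not be left out there, as no contrast remains. The replicate block, with the number of the siRNA and of the edited array, also gave 0 called genes for siDONSON minus *LOXL2* editing (389 of all genes in place of 995). Arrays of the same number correlated at -0.02, -0.01 and -0.01 in their deviations from the group means. Whether these arrays share more than a number cannot be told from such ratios.

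Means that were near 0 and not called changed sign in some settings. In siDONSON these were *TICRR* (0.0558) and *TOPBP1* (0.0252) under normexp and loess, and *GINS2* (-0.000988) and *MCM10* (-0.0115) under median centring. With an array left out, the means in siDONSON ranged from -0.0126 to 0.0974 for *GINS1*, -0.169 to 0.191 for *GINS2*, -0.0694 to 0.116 for *MCM10*, -0.046 to 0.0417 for *TICRR*, -0.251 to 0.0023 for *GINS3* and -0.202 to 0.0192 for *TOPBP1*. *MCM10* was at -0.00992 in *LOXL2* editing and -0.00154 in the difference under median centring. With an array left out it ranged from -0.0283 to 0.0335 in *LOXL2* editing and from -0.0815 to 0.104 in the difference, where *GINS3* ranged from -0.0283 to 0.225 and *GINS4* from -0.0303 to 0.138. Genes called over all genes ranged from 0 to 2823 after *miR-150-3p*, 26 to 2897 after siDONSON, 470 to 5873 after *LOXL2* editing, 125 to 545 for EBC-1 minus SK-MES-1 and 155 to 1601 for siDONSON minus *LOXL2* editing. The cause of these changes was not tested. Dim signals limit *MTBP*, *MCM10* and *TICRR*, whose ratios moved most between background corrections.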
